A study of Mus musculus with 75 samples.

Results

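The replication-dependent histone genes are the genes that supply the bulk of the core histones H2A, H2B, H3 and H4 and of the linker histone H1 while DNA is copied. They were taken as all genes in the count files whose symbol starts with Hist1h, Hist2h, Hist3h or Hist4h, which gave 69 of 24984 genes. By symbol, 6 are H1 genes, 19 H2A, 19 H2B, 12 H3 and 13 H4 genes. RefSeq gives 66 of them as protein-coding and 2, Hist1h2al and Hist3h2bb-ps, as transcribed pseudogenes, and Hist1h2ap was not matched. No gene carried the newer symbols for these histones.

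These genes are made mostly in S phase, when new chromatin has to be packed. They have no introns as a rule, lie in clusters, and their classical mRNAs end in a short stem-loop rather than in a poly(A) tail. The stem-loop is bound by SLBP, which is needed for 3′ end processing and for translation, and the mRNAs are degraded when DNA synthesis stops. Some of these genes also give rise to polyadenylated transcripts in cells that have stopped dividing. Replacement histones such as H2A.Z and H3.3 are made outside S phase from polyadenylated mRNAs. Replicative senescence is the lasting arrest that cultured cells reach after repeated passaging, so that fewer cells pass through S phase.

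The cells were mouse skin fibroblasts. The paper's methods give the strain C57BL/6 for the 2-month-old mice and name no strain for the newborn mice. For passaging, fibroblasts of 2-month-old female mice were collected at passage 1, 3, 5 and 7 (P1, P3, P5 and P7), with 4 RNA-seq libraries at each passage and 13 ATAC-seq samples, 4 of P1 and 3 of each later passage. P7 was the passage that the study treated as senescent. For E2f4 overexpression, 2 libraries of P4 cells carrying a doxycycline-inducible E2f4 lentivirus were set against 2 libraries with the EGFP vector. For E2f4 knockdown in P3 cells, 3 libraries of the hairpin sh1 were set against 3 of a non-targeting hairpin (nt). Tead1 was knocked down with the hairpins sh3 and sh4, and Atf3, in pre-senescent cells, with sh5 and sh6. Each of these hairpins had 3 libraries, and both hairpins of a gene shared 3 nt libraries, so the paired comparisons are not independent. The paper's methods name a passage later than P4 for senescence interventions, without naming libraries, and no passage is given for the Tead1 cells. The interventions used cells of newborn and of 2-month-old mice, and the sources used here do not say which library came from which. For the RNA-seq libraries they also do not say whether the replicates were separate animals or cultures. The paper speaks of 3 independent sample series for its DNA methylation sites, without linking the RNA-seq libraries to them. The p-values thus measure only the spread between these libraries, which may be technical.

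Passage libraries held 13430229 to 15725823 counts and intervention libraries 9147324 to 27552949. E2f4 was higher after overexpression (log2 fold change 4.79) and lower with sh1 (−1.497), and Tead1 was lower with sh3 (−0.96) and sh4 (−0.78). Atf3 was lower with sh5 (log2 fold change −1.14, adjusted p = 0.0447). With sh6, Atf3 was at 1.72 against 2.98 counts per 1e6 counted reads (CPM) in nt. This did not pass the test (−0.79, adjusted p = 0.114), so the RNA-seq counts alone do not show the knockdown in the sh6 libraries. The paper checked its Atf3 knockdown by RT-qPCR and immunoblot, which were not part of the data used here. Fibroblast markers were high in every group and summed to at least 16780 CPM. The P1 libraries also held RNA of other cell types, with macrophage markers summing to 296 to 467 CPM at P1 and to 42.6 to 60.02 CPM at P3.

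RefSeq (GRCm38.p6, the assembly of mm10) had an entry for 68 of the 69 genes. The Hist1 cluster on chromosome 13 (chr13:21715711-23934913) held 53 of them, the pseudogene Hist1h2al lay far from it at chr13:51200084-51203066, the Hist2 cluster on chromosome 3 held 10, the Hist3 cluster on chromosome 11 held 3, and Hist4h4 lay alone on chromosome 6. A stem-loop with 2 arms of 6 bases and a loop of 4 bases was searched for in the 150 bases after the stop codon of 66 coding genes and was found in 64. The 2 without a match in this window were Hist1h2an and Hist2h2be. The matches had 8 different sequences, a number that the consensus itself limits. The 4 lines below show the most common form of H1, H2A, H2B and H3 genes (40 genes), the form with another last loop base (9 genes), and 2 forms of H4 genes (8 and 2 genes). They are shown because this element stands where other mRNAs carry a poly(A) tail. The sequences are from the RefSeq genome sequence, 5′ to 3′ on the coding strand, with the arms that pair in capitals. The site of Hist1h1c lies at chr13:23739512-23739527 on the plus strand, that of Hist1h2bb at chr13:23747203-23747218 on the plus strand, that of Hist1h4h at chr13:23531458-23531473 on the plus strand and that of Hist1h4i at chr13:22040966-22040981 on the minus strand.
Hist1h1c: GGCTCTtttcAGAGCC
Hist1h2bb: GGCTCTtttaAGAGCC
Hist1h4h: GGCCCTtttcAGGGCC
Hist1h4i: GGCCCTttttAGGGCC

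The gene models of RefSeq ended within 20 bases of the stem-loop for 58 of the 64 genes. The other 6 had a model that ran further, among them Hist1h2bc by 7818 bases and Hist1h2be by 1861 bases. Near-identical copies make several counts uncertain, since 21 genes shared over 50% of their 150-base windows with another of these genes and 3 shared all of them. Hist3h2a overlaps Trim17 and Hist1h2be overlaps Gm33387, and the counting ignored strand, so the counts of both are uncertain.

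Promoter windows of 300 bases, 250 before the annotated start and the rest after it, were available from RefSeq for 61 of the genes (62 windows, since Hist1h2be has 2). The octamer ATTTGCAT, a known element of H2B promoters, occurred on either strand in 14 of these windows (22.6%) and in 1.74% of all 32851 promoters of the table. It was found in 7 of 17 windows of H2A genes and in 7 of 17 of H2B genes, and in none of the windows of H1, H3 and H4 genes. CCAAT was present in 53 of the 62 windows, in every window of H1, H2A, H2B and H3 genes and in 3 of 12 of H4 genes, against 37.4% of all promoters. TATAAA occurred in 35 of 62 windows against 13.6% of all promoters. The E2F-type motif TTTNNCGC, with C or G at each N, was in 10 of 62 windows (16.1%) and in 2.27% of all promoters. Sites were searched on both strands and counted for each motif on its own, and a match is a run of letters, not a shown binding site. Windows of divergent H2A and H2B genes overlap, so 1 site can count for 2 windows. Such pairs in which both windows held the E2F-type motif were Hist1h2ad with Hist1h2bf, Hist1h2ag with Hist1h2bj, Hist1h2ah with Hist1h2bk and Hist1h2an with Hist1h2bp. For the octamer they were Hist1h2aa with Hist1h2ba, Hist1h2ae with Hist1h2bg and Hist1h2ah with Hist1h2bk. The numbers of windows are thus not numbers of separate sites.

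Below are the 250 bases before the start of 4 genes. They were chosen because their promoters differ while the mean RNA level of each was higher at P7 than at P1. For Hist1h2ac the libraries of P1 and P7 overlapped. Letters in capitals mark CCAAT, ATTTGCAT and TATAAA on either strand (ATTGG and ATGCAAAT are CCAAT and the octamer read on the other strand). The window of Hist1h1c is chr13:23738557-23738806 on the plus strand. The window of Hist1h2ac, chr13:23683960-23684209 on the minus strand, is the stretch between 2 divergent genes, and the start of Hist1h2bc lies within it. The window of Hist1h2be is the one at its coding region, chr13:23585971-23586220 on the minus strand. The window of Hist1h4h is chr13:23530794-23531043 on the plus strand, and it holds none of these motifs.
Hist1h1c: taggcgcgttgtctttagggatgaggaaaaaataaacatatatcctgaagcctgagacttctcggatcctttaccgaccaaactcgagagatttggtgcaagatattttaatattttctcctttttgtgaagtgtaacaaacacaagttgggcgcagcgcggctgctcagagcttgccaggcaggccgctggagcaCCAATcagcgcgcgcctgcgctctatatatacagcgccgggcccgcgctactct
Hist1h2ac: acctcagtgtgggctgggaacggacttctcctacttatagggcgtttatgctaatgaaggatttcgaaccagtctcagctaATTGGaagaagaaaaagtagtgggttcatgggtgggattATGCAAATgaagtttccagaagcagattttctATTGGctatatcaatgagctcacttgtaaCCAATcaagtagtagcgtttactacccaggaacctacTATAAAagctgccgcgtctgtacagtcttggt
Hist1h2be: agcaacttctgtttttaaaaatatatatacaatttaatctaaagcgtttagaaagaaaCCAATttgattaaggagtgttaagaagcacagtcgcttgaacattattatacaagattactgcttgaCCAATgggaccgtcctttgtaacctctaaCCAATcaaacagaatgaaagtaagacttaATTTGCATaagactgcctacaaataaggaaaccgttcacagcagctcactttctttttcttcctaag
Hist1h4h: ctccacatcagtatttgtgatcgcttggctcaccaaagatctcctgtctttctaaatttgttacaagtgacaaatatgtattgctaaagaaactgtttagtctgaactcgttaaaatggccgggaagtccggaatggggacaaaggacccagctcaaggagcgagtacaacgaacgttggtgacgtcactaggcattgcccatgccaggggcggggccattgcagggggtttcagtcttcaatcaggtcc

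Most of these genes had few reads. Over all 44 RNA-seq libraries, 8 genes had no read, 26 had between 1 and 99 reads and 35 had 100 or more. Whether the libraries were made by poly(A) selection or by removal of ribosomal RNA is not given in the sources used here. Among 18 other RNAs that lack a poly(A) tail, 10 were in the files, and their summed level was 2.72 to 4.72 CPM at P1, 0.657 to 1.16 at P3, 0.582 to 1.52 at P5 and 0.926 to 1.23 at P7. The 1 of them that could be tested, Rpph1, was called lower at P7 against P1 (−2.69 ± 0.44). After the filter on low counts (filterByExpr of edgeR), 22 histone genes were tested in the passages, 20 in E2f4 overexpression, 15 in E2f4 knockdown, 21 in Tead1 knockdown and 29 in Atf3 knockdown. In all, 31 passed in at least 1 experiment and 15 passed in every one. Levels below are CPM after TMM scaling within an experiment, so a level in one experiment is not comparable with that in another.

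The RNA of these genes was concentrated in a pair of genes. Per kilobase of exon and averaged over the 16 passage libraries, Hist1h1c, which codes for the linker histone H1.2, was at 117 CPM and Hist1h2bc, an H2B gene, at 116 CPM. Next were Hist3h2a at 32.8, Hist1h4i at 22.8 and Hist1h4h at 12.8 CPM per kilobase, and Hist1h2bj at 5.07. In GRCm38.p6 these genes lie as follows, with Hist1h1c (H1f2 in RefSeq) at chr13:23738807-23739531 on the plus strand, Hist1h2bc (H2bc4 in RefSeq) at chr13:23684199-23692480 on the plus strand, Hist3h2a (H2aw in RefSeq) at chr11:58954685-58955192 on the plus strand. On chromosome 13 are also Hist1h4i (H4c9 in RefSeq) at chr13:22040960-22041362 on the minus strand, Hist1h4h (H4c8 in RefSeq) at chr13:23531044-23531478 on the plus strand and Hist1h2be (H2bc6 in RefSeq) at chr13:23583670-23621124 on the minus strand. Together Hist1h1c and Hist1h2bc held between 65.1% and 79.3% of the summed CPM of the 69 genes in every library.

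With passaging, the summed level of the histone genes rose while that of S phase genes fell. The 69 genes summed to 143 ± 12.5 CPM in the P1 libraries, 141 ± 13.96 at P3, 253 ± 41.1 at P5 and then 399 ± 23.8 at P7 (SD, n = 4 each), and the P7 libraries (373 to 430 CPM) did not overlap with those of any earlier passage. A reference list of 24 S phase genes summed to 2498, 2013, 1001 and 563 CPM at the same passages. Without Hist1h2bc and Hist1h1c the sum of the histone genes went from 38.1 ± 2.56 CPM (P1) and 33.1 ± 3.48 (P3) to 61.6 ± 9.14 (P5) and 106 ± 7.33 (P7), and the P7 libraries were again above all others. The sums of all 5 classes were higher at P7 than at P3. H1 genes went from 52.0 to 144 CPM, H2A genes from 15.4 to 29.8, H2B genes from 64.4 to 179.5, H3 genes from 2.73 to 9.33 and H4 genes from 6.36 to 35.8. Bulk RNA cannot tell more RNA per cell from a larger share of cells that make it.

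**Figure D1:**
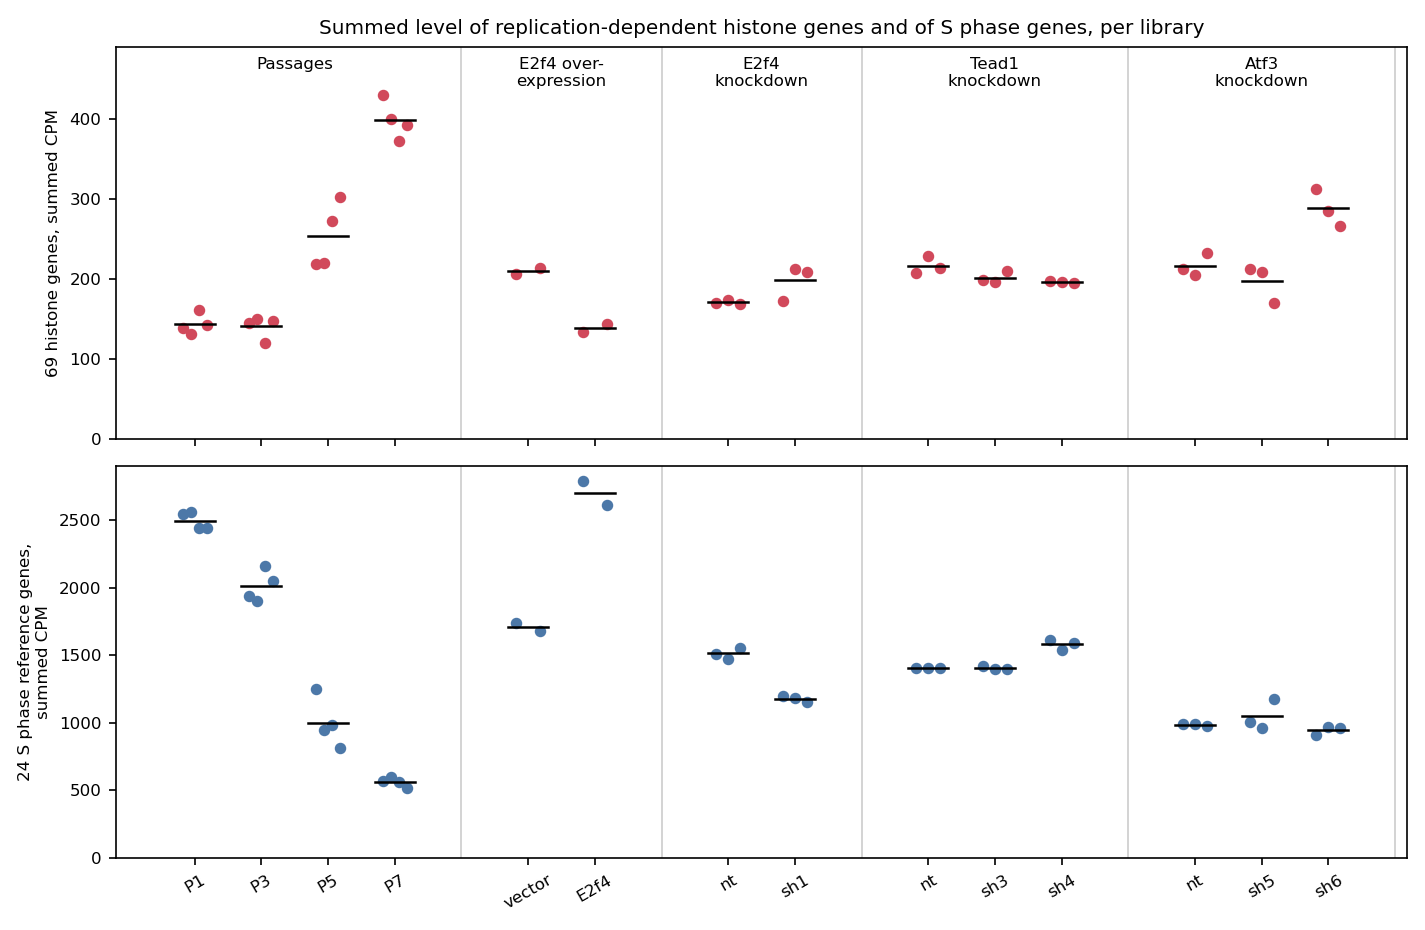
Summed CPM of the 69 histone genes (top) and of 24 S phase reference genes (bottom) in each RNA-seq library, by group, with lines at group means. Over the passages the histone sum went from 143 CPM at P1 to 399 CPM at P7 and the S phase sum from 2498 to 563 CPM. With E2f4 overexpression the histone sum was lower and the S phase sum higher than with the vector. The axes start at 0 and CPM were scaled separately in each experiment.

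Below, called means an adjusted p under 0.05 (edgeR's quasi-likelihood test, Benjamini-Hochberg over all genes tested) and a fold change over 2, and passed means the adjusted p alone. At P7 against P3, 17 of the 22 tested histone genes were called higher and none lower, whereas 4.44% of 13442 genes were called higher and 7.41% lower. At P7 against P1, 15 were called higher and none lower, beside 8.10% and 13.3% of all genes. By the adjusted p alone 18 genes were higher at P7 than at P3 (24.8% of all genes higher, 26.5% lower) and 17 at P7 than at P1 (30.5% and 31.9%), with none lower in both. The median log2 fold change of the 22 genes was 2.00 at P7 against P3 and 2.15 at P7 against P1, and that of all genes was −0.01 in both. These counts are a description only, because many of the 22 passed the filter through their reads at P7. Only 7 of the 22 had 10 or more reads in every library of P1, while 18 had them in every library of P7. The 5 genes with 10 or more reads in all 16 libraries were Hist1h1c, Hist1h2bc, Hist1h4i, Hist2h2be and Hist3h2a. Of these, 4 rose between P3 and P7 with an adjusted p under 0.05, and Hist2h2be did not pass.

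The steps were as follows. Between P1 and P3, 6 histone genes were called higher (2.40% of all genes) and 1 lower (6.58% of all genes). Between P3 and P5, 9 were called higher (0.841% of all genes) and none lower (3.05%). Between P5 and P7, 6 were called higher (1.19% of all genes) and none lower (2.28%). By the adjusted p alone, 7 were higher and 1 lower between P1 and P3 (16% and 17.5% of all genes), 13 higher between P3 and P5 (13.4%, with 15.3% lower) and 10 higher between P5 and P7 (7.67%, with 9.10% lower). Hist1h4h, Hist1h2be and Hist1h3b were called higher at each of these 3 steps. For Hist1h3b each of the calls was lost in some fits that left out a library, with an adjusted p of up to 0.0545, 0.121 and 0.0945 in the order of the steps.

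The 47 genes that were not tested had few reads, with 342 in all over the P1 libraries, then 207, 306 and 435 over those of P3, P5 and P7, against 8272, 8079, 15047 and 20521 reads of the 22 tested genes. Their summed level was 4.95 to 6.70 CPM at P1, 2.95 to 4.26 at P3, 4.33 to 5.83 at P5 and 7.72 to 8.76 at P7. The P7 libraries were above all others here as well.

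The abundant H2B gene Hist1h2bc rose from P3 on. It was at 44.4, 40.8, 55.1 and 44.99 CPM in the 4 P1 libraries, 58.9, 64.0, 46.9 and 61.1 at P3, 95.3, 87.5, 100.5 and 117 at P5 and 163, 160.5, 149 and 149.9 at P7. P1 and P3 overlapped, and the later passages were separate. At P3 against P1 the change was small (0.32 ± 0.11, adjusted p = 0.0327) and lost its call in some fits that left out a library of P1 or P3 (adjusted p up to 0.112). The log2 fold change was 1.75 ± 0.11 (SE) at P7 against P1 (adjusted p = 9.77e-11) and 1.43 ± 0.11 at P7 against P3 (4.21e-09). Hist1h2be, another H2B gene, was at 0.205, 0.816, 0.889 and 0.619 CPM at P1, 1.97, 1.51, 1.29 and 3.22 at P3, 3.88, 4.08, 4.26 and 5.03 at P5 and 9.24, 11.8, 11.1 and 11.1 at P7. The 4 passages did not overlap, and P7 was 16.9-fold above P1 (log2 fold change 4.08 ± 0.29, adjusted p = 5e-10). Hist1h2bj, also H2B, was at 0.479, 0.476, 0.273 and 0.248 CPM at P1, 1.18, 0.686, 0.580 and 1.61 at P3, 1.49, 1.94, 2.97 and 4.37 at P5 and 4.89, 5.79, 4.23 and 6.24 at P7. P1 lay below all later libraries, and P5 overlapped with its neighbours (P7 against P1 3.82 ± 0.39, adjusted p = 7.05e-08).

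Not all H2B genes moved. Hist2h2be, which had no match to the stem-loop consensus within the searched bases, was at 1.85, 2.72, 2.19 and 2.97 CPM at P1, 1.31, 1.23, 1.42 and 2.49 at P3, 2.58, 0.968, 2.00 and 1.52 at P5 and 2.06, 0.849, 2.77 and 4.82 at P7. The groups overlapped and no step passed the test (P7 against P1 0.11 ± 0.38, adjusted p = 0.81). For Hist1h2bg the levels were 1.85, 1.63, 1.71 and 1.11 CPM at P1, 1.05, 0.823, 0.387 and 1.39 at P3, 1.03, 2.21, 1.81 and 1.79 at P5 and 2.14, 1.70, 2.38 and 2.60 at P7. Its mean was lowest at P3, and it passed at P7 against P3 (1.28 ± 0.32, adjusted p = 0.00286) and at P5 against P3 (0.91 ± 0.33, adjusted p = 0.0435). The second call was lost in some fits that left out a library (adjusted p up to 0.142). The sixth tested H2B gene, Hist1h2bb, was at most at 0.137 CPM in a P1 library and between 0.742 and 1.15 CPM at P7 (3.39 ± 0.68 against P1, adjusted p = 0.000245).

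The linker histone genes Hist1h1c, Hist1h1d and Hist1h1e rose from P3 on. Hist1h1a and Hist1h1t had too few reads to be tested in the passages, and Hist1h1a had 3 to 16 reads in the P1 libraries and 2 to 6 at P7. Hist1h1c was at 57.9, 52.5, 63.9 and 61.4 CPM at P1, 52.9, 55.0, 43.3 and 48.8 at P3, 68.9, 79.5, 105 and 114 at P5 and 156, 136, 128 and 131 at P7. P1 and P3 overlapped, and P5 and P7 stood above both without overlap (P7 against P3 1.46 ± 0.13, adjusted p = 3.96e-08). Hist1h1d, which codes for H1.3, was at 0.753, 0.816, 0.342 and 0.866 CPM at P1, 0.197, 0.754, 0.774 and 0.512 at P3, 1.23, 1.87, 2.71 and 2.85 at P5 and 2.60, 3.01, 3.15 and 3.49 at P7. The gain lay between P3 and P5 (1.94 ± 0.36, adjusted p = 0.000779), and P5 and P7 overlapped. Hist1h1e, the gene of H1.4, was between 0.0680 and 0.342 CPM at P1 and between 2.00 and 2.52 CPM at P7 (3.37 ± 0.45, adjusted p = 2.48e-06). Hist1h1b, the gene of H1.5, was between 0.272 and 1.03 CPM at P1 and between 1.08 and 1.48 CPM at P7 and did not pass (1.06 ± 0.50, adjusted p = 0.0695).

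H4 genes showed 2 courses. Hist1h4h was nearly silent at P1, with 0.616, 0.272, 0.752 and 0.248 CPM, and was at 1.25, 1.51, 1.23 and 1.46 at P3, 4.07, 3.39, 4.65 and 8.27 at P5 and 17.6, 16.7, 11.3 and 15.4 at P7. The 4 passages did not overlap, and P7 was 32.1-fold above P1 (5.01 ± 0.32, adjusted p = 1.05e-10). Hist1h4i fell first, from 8.01, 8.77, 9.78 and 7.73 CPM at P1 to 4.21, 3.16, 3.998 and 4.10 at P3, and then rose to 7.62, 7.12, 9.56 and 9.33 at P5 and 18.3, 17.5, 15.4 and 12.2 at P7. It was the only histone gene called lower at P3 (−1.15 ± 0.16, adjusted p = 2.04e-05), and P7 stood above all other passages (P7 against P3 2.03 ± 0.16, adjusted p = 5.26e-09). Hist1h4n was between 0.0685 and 0.408 CPM at P1 and between 0.611 and 1.84 CPM at P7 (2.28 ± 0.54, adjusted p = 0.00121). Hist1h4a had 3 reads in the 4 P1 libraries and 77 at P7, a ratio of 29.4 with a 95% counting interval of 9.68 to 145. Such intervals cover counting error only.

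Among H3 genes, Hist1h3b was at 0.0685, 0.0680, 0 and 0.186 CPM at P1, 0.131, 0.343, 0.451 and 1.17 at P3, 1.42, 0.899, 1.03 and 1.46 at P5 and 2.82, 2.31, 2.31 and 3.27 at P7. P3 overlapped with P1 and with P5, and P7 was separate (P7 against P1 4.88 ± 0.55, adjusted p = 3.07e-07). Hist1h3d was at 1.03, 0.612, 0.479 and 0.681 CPM at P1, 1.18, 0.823, 0.580 and 0.658 at P3, 1.36, 2.49, 0.646 and 1.52 at P5 and 3.28, 1.85, 3.38 and 4.23 at P7. P7 was above P1 and P3 in every library but overlapped with P5 (P7 against P3 1.96 ± 0.36, adjusted p = 0.000194). The third tested H3 gene, Hist1h3g, was between 0.748 and 1.85 CPM at P1, at most at 0.709 at P3 and between 0.153 and 1.003 at P7. It did not pass in any comparison of passages (P3 against P1 −1.45 ± 0.57, adjusted p = 0.0543, and P7 against P1 −1.12 ± 0.56, adjusted p = 0.0864).

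Of the H2A genes, Hist3h2a, which shares no 150-base window, was at 12.9, 13.7, 14.01 and 12.4 CPM at P1, 14.1, 11.9, 12.3 and 13.5 at P3, 16.8, 15.7, 23.5 and 20.1 at P5 and 26.4, 19.8, 16.9 and 22.7 at P7. P5 and P7 overlapped each other and stood above P1 and P3 (P7 against P3 0.73 ± 0.14, adjusted p = 0.000294). Hist1h2ad, with 65.0% shared windows, was at 0, 0.340, 0.137 and 0.743 CPM at P1, 1.117, 1.10, 0.645 and 0.658 at P3, 2.39, 2.49, 1.49 and 2.05 at P5 and 2.37, 1.70, 2.92 and 3.64 at P7. P7 stood above P1 and P3 and overlapped with P5 (P7 against P1 3.05 ± 0.47, adjusted p = 1.47e-05). Hist1h2ab had 3 reads in all at P1, where its libraries were at 0, 0.0680, 0.0684 and 0.0619 CPM, and was at 0.526, 0.686, 0.129 and 0.439 at P3, 0.517, 1.18, 0.775 and 1.19 at P5 and 1.30, 2.93, 2.92 and 3.86 at P7. With 145 reads at P7 against 3 at P1 the ratio was 55.3 (95% counting interval 18.5 to 271). Hist1h2ac, the partner of Hist1h2bc across the shared promoter, was far lower, between 0.124 and 0.684 CPM at P1 and between 0.615 and 1.47 CPM at P7 (1.29 ± 0.53, adjusted p = 0.0398). Its P7 libraries overlapped with those of P1 and P3, and the call was lost in some fits that left out a library (adjusted p up to 0.153).

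**Figure D2:**
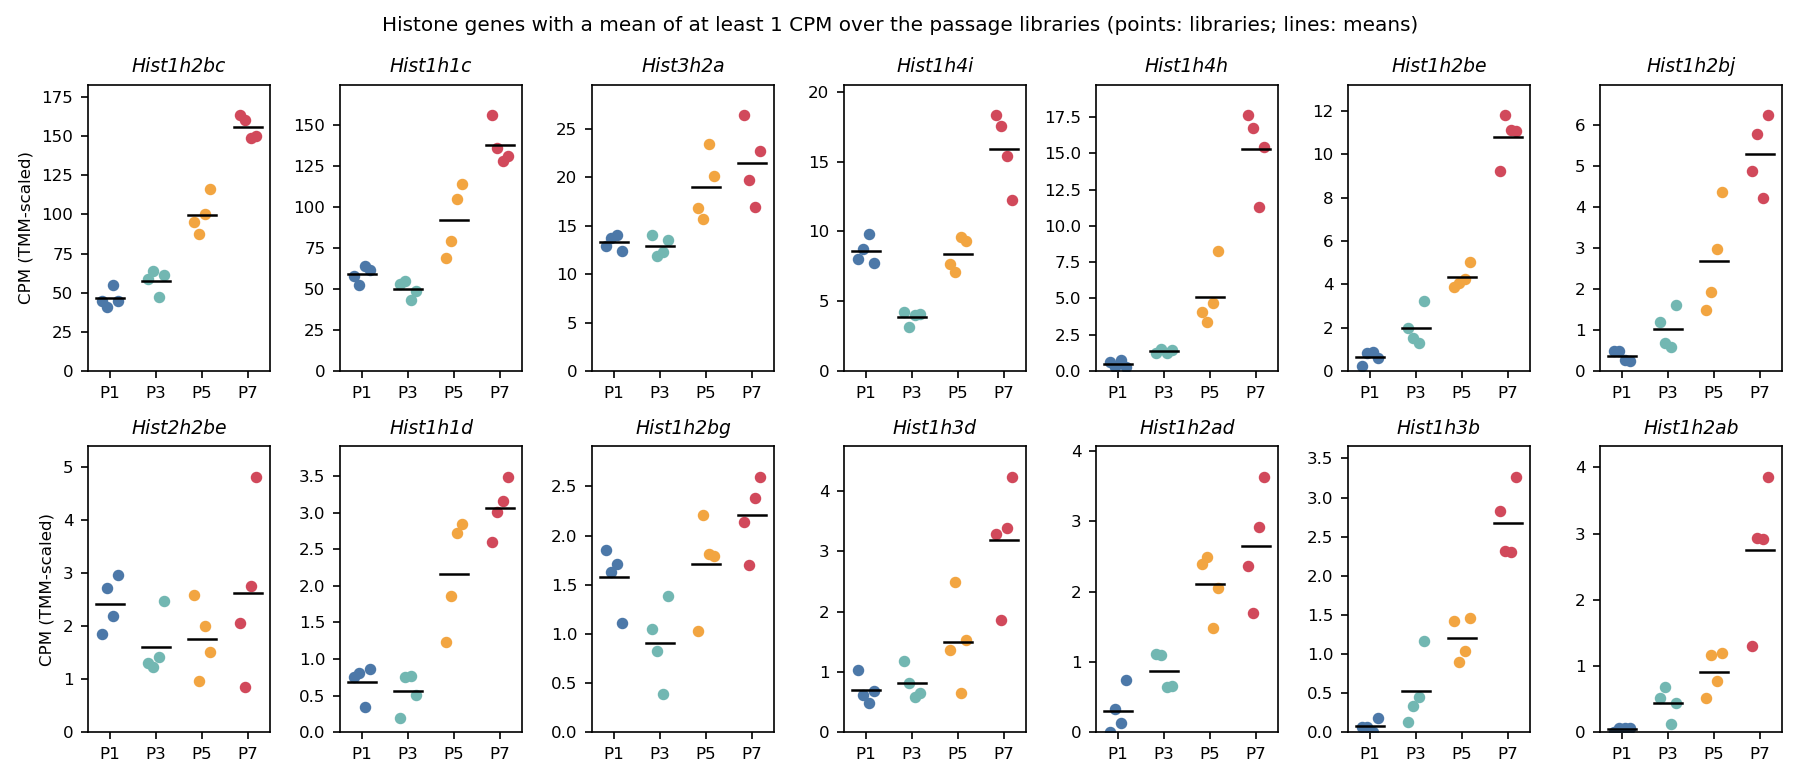
CPM of 14 histone genes in each passage library (points) with the mean of each passage (lines). All axes start at 0 and differ in height. Hist1h4h and Hist1h2be climbed at each passage without overlap, Hist1h4i was lowest at P3, and Hist2h2be overlapped between all passages.

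The markers of other cell types were highest at P1 and did not take 1 course afterwards, and their part in the histone values was not tested. All 8 macrophage markers and all 8 endothelial markers had reads at P1, and the endothelial sum was 166 to 185 CPM at P1 and 8.85 to 12.04 CPM at P7. Keratinocyte markers summed to 65.7 to 415 CPM at P1 and 6.87 to 11.2 CPM at P7, where 3 of 8 had no read, but they were lower still at P3 (1.78 to 3.68 CPM) and P5 (2.07 to 4.77 CPM). The skeletal muscle sum was 123 to 190 CPM at P1, 52.4 to 58.9 at P3, 29.6 to 56.5 at P5 and 38.8 to 109.6 at P7. The macrophage sum was 19.4 to 30.1 CPM at P5, below that at P7. The endothelial sum was still 44.5 to 56.1 CPM at P3. Between P3 and P7 the macrophage sums overlapped (42.6 to 60.02 and 33.6 to 52.3 CPM). Of the 8 macrophage markers, 3 were called lower at P7 against P3 and 1 higher (median log2 fold change −1.20). In the same comparison 5 of 6 tested skeletal muscle markers (median −3.30) and all 8 endothelial markers (−2.73) were called lower. Of 6 tested keratinocyte markers, 2 were called higher and none lower (−1.33). Over all genes 4.44% were called higher and 7.41% lower. The log2 ratio of the histone sum was 1.501 at P7 against P3 and 1.48 at P7 against P1.

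The reference lists were set beside all genes at P7 against P1, of which 31.9% were lower by the adjusted p and 13.3% were called lower. All 24 S phase genes were lower at P7 than at P1 with an adjusted p under 0.05, 22 of them called, and the median log2 fold change was −2.28. Among them were the proliferation marker Mki67 (−3.96), the origin licensing factors Cdc6 (−3.45) and Mcm5 (−3.17) and cyclin A2 (Ccna2, −3.25). Of 11 replacement histone genes, 7 were lower and 1 higher at P7 than at P1, 3 of them called, all lower. The centromeric H3 gene Cenpa fell by 2.06, H2afz, the gene of H2A.Z, by 1.86 and H2afx by 1.69, whereas H2afj, the gene of H2A.J, was 0.96 higher, all on the log2 scale.

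Of 25 genes of histone mRNA processing, 15 were lower and 4 higher at P7 by the adjusted p, beside 31.9% and 30.5% of all genes. Only the called genes, 4 and all lower, were near their share over all genes (13.3%). These were Casp8ap2, a component of the histone locus body (−1.64), the stem-loop binding protein Slbp (−1.34), the exonuclease Eri1 (−1.24) and Srrt (−1.02). Of 22 histone chaperone genes, 19 were lower and none higher, 11 of them called. The largest changes were those of Asf1b (−2.83), the CAF-1 subunit Chaf1b (−2.37), Nasp (−2.23) and Tonsl (−2.17).

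**Figure D3:**
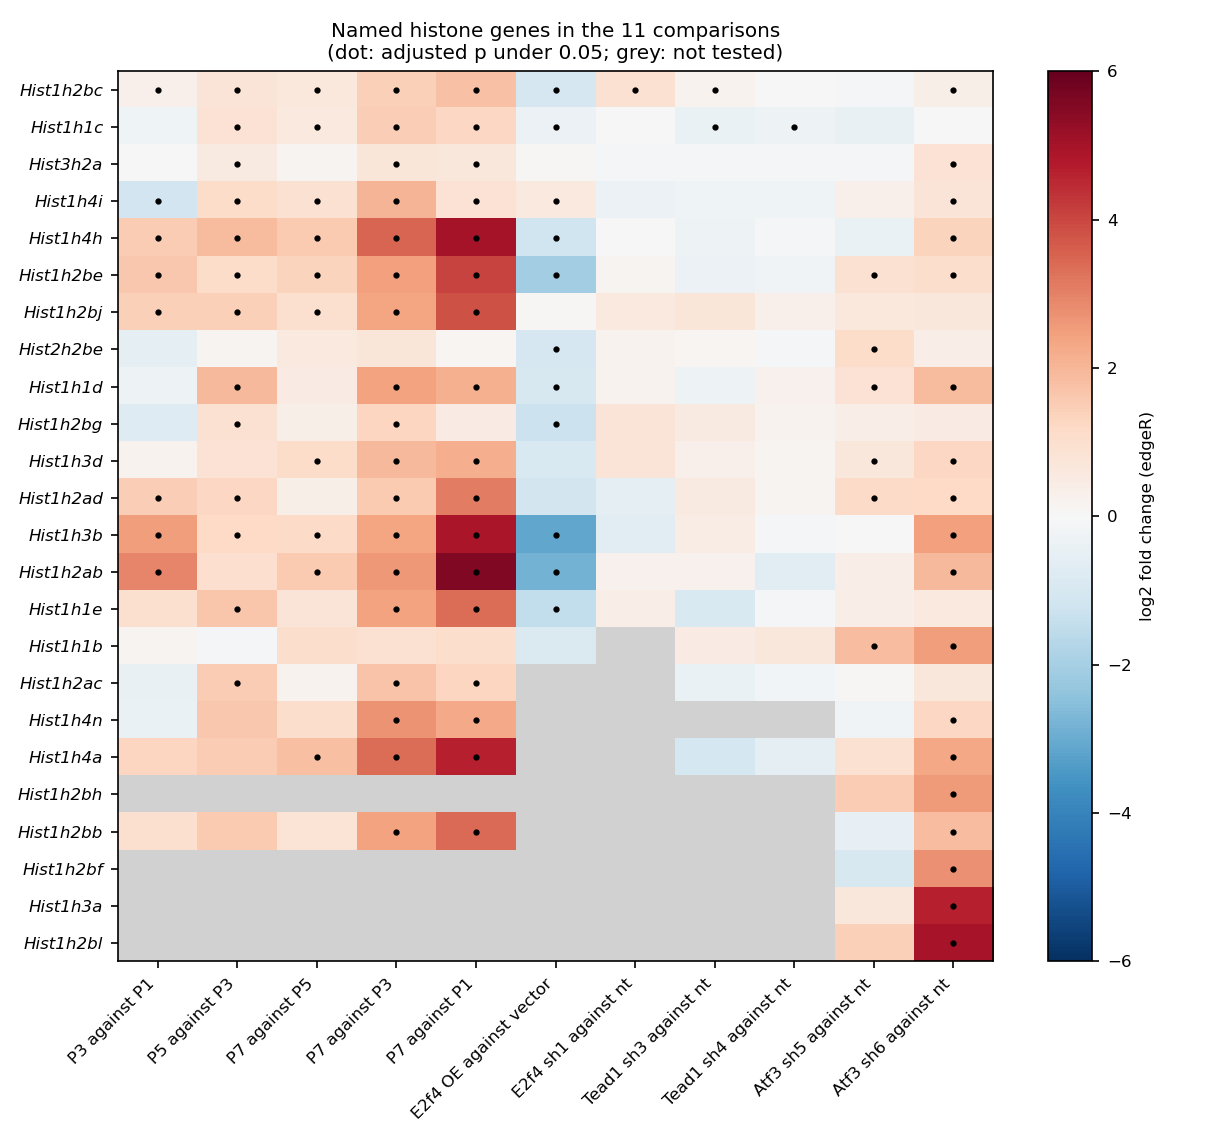
Log2 fold change (edgeR) of the 24 named histone genes, in rows from the highest mean level in the passages to the lowest, in 11 comparisons. Red is higher and blue lower in the first named group, a dot marks an adjusted p under 0.05, and grey marks genes that did not pass the filter on low counts. Comparisons within an experiment share libraries. The columns of P7 and of Atf3 sh6 are mostly red, and that of E2f4 overexpression is mostly blue.

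E2f4 is an E2F family protein best known as a repressor of cell cycle genes in resting cells. With E2f4 overexpression, 8 of 20 tested histone genes were called lower and none higher, beside 10.4% of all genes called lower and 7.69% called higher. The median log2 fold change was −0.94 over the 20 genes and 0.01 over all genes. The summed level was 134 and 144 CPM with E2f4 and 206 and 213 CPM with the vector. The share of reads in no gene also differed between these libraries, with 6.01% and 5.64% against 11.48% and 10.83%, and its part in the histone values was not tested. With 2 libraries a group, the calls rest on a spread that the model shares across genes. By the adjusted p alone 10 were lower and 1 higher (28.2% and 28.9% of all genes). At the same time 20 of the 24 S phase genes were higher with an adjusted p under 0.05 (6 called), and so were 10 of the 11 replacement histones (5 called).

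Hist1h3b was at 0.691 and 0.621 CPM with E2f4 and at 5.63 and 5.99 CPM with the vector, which is 8.73-fold lower (−3.13 ± 0.28, adjusted p = 1.6e-05). Hist1h2ab was at 1.05 and 0.717 CPM against 6.46 and 6.57 CPM (−2.84 ± 0.27, adjusted p = 2.06e-05). These neighbours on chromosome 13 had the largest changes of the named genes here. Hist1h2be was at 1.02 and 1.19 CPM against 4.06 and 5.42 CPM (−2.09 ± 0.29, adjusted p = 0.000158), and Hist1h2bc was at 31.9 and 32.3 CPM against 63.7 and 66.6 CPM (−1.02 ± 0.11, adjusted p = 4.82e-05). Hist1h1c fell less, with 68.9 and 77.1 CPM against 91.8 and 96.0 CPM (−0.36 ± 0.11, adjusted p = 0.0173). In none of these did the groups overlap.

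Other genes called lower were Hist1h4h (0.836 and 0.669 against 2.18 and 1.21 CPM, −1.18 ± 0.41), Hist1h2bg (0.7998 and 0.526 against 2.14 and 1.09 CPM, −1.29 ± 0.44), Hist2h2be (0.982 and 1.48 against 2.44 and 2.42 CPM, −1.003 ± 0.32) and Hist1h1e (0.327 and 0.382 against 1.05 and 0.922 CPM, −1.48 ± 0.46). These 4 calls were lost in some alternative fits, with an adjusted p of up to 0.336 for Hist1h4h, 0.345 for Hist1h2bg, 0.201 for Hist2h2be and 0.152 for Hist1h1e when a library was left out. The same held for Hist1h1c (0.214), Hist1h4i (0.257) and Hist1h1d (0.329). Hist1h1d was lower by less than 2-fold (0.945 and 1.86 against 2.49 and 2.88 CPM). Hist1h4i went the other way, with 5.05 and 6.12 CPM against 3.75 and 3.69 CPM (0.58 ± 0.21, adjusted p = 0.0357). Hist3h2a was at 9.56 and 8.79 CPM against 9.12 and 8.47 CPM (0.06 ± 0.16) and Hist1h2bj at 1.53 and 1.10 against 1.00 and 1.61 CPM (0.05 ± 0.38), and neither passed the test. The Acta1 transcript, 1 of 8 skeletal muscle markers, was at 21.5 CPM with E2f4 and 70.1 CPM with the vector, and 5 of those 8 markers had no read in either group.

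With E2f4 knockdown, none of 15 tested histone genes was called in either direction (1.46% of all genes were called higher and 0.211% lower), and 2 had an unadjusted p under 0.05. DESeq2 also called none. Hist1h2bc was at 35.8, 43.9 and 80.7 CPM with sh1 and 26.8, 28.1 and 30.6 CPM with nt, which passed (10% of all genes were higher by the adjusted p alone and 7.79% lower) (0.90 ± 0.22, adjusted p = 0.00969). The groups did not overlap, and 1 sh1 library stood far above the other two. Without that library the log2 fold change of Hist1h2bc was 0.49 (edgeR, adjusted p = 0.000832), and DESeq2 on all libraries gave 0.91 (adjusted p = 0.0702). Without the first nt library Hist1h2bc was at 0.86 (adjusted p = 0.0608). Hist1h1c was at 97.3, 117 and 82.4 CPM with sh1 and 93.9, 101 and 93.2 CPM with nt, which overlapped. Of the S phase genes, 14 of 24 were lower and none higher in the same comparison, with none called.

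In Tead1 knockdown no histone gene was called with either hairpin. With sh3 1.99% of all genes were called higher and 0.722% lower, and with sh4 1.01% and 0.523%. Of 21 tested histone genes, 3 had an unadjusted p under 0.05 with each hairpin, and DESeq2 called none. By the adjusted p alone 1 was higher and 1 lower with sh3 (17.6% and 17.7% of all genes) and 1 lower with sh4 (14.7%, with 14.4% higher). Hist1h1c was at 71.9, 67.4 and 73.2 CPM with sh3, 78.2, 78.8 and 74.9 CPM with sh4 and 88.9, 104 and 91.2 CPM with nt. Both hairpins lay below nt without overlap (sh3 −0.42 ± 0.06, adjusted p = 4.17e-07, and sh4 −0.29 ± 0.06, adjusted p = 0.000115). Hist1h2bc was at 75.1, 74.7 and 81.9 CPM with sh3, 69.4, 65.2 and 64.0 CPM with sh4 and 64.8, 69.5 and 68.1 CPM with nt. It was higher with sh3 alone (0.19 ± 0.05, adjusted p = 0.00485, against −0.03 ± 0.05 with sh4), and the hairpins differed in a direct comparison (sh4 against sh3 −0.22 ± 0.05, adjusted p = 0.00831). In that comparison it was the 1 histone gene that passed (4.03% of all genes were lower and 3.34% higher by the adjusted p alone) and none was called (0.246% lower and 0.0231% higher). Without Hist1h2bc and Hist1h1c the sums were 53.4 ± 1.79 CPM with sh3, 52.8 ± 2.98 with sh4 and 54.1 ± 0.823 with nt (SD, n = 3), differences smaller than the spread within sh4.

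With sh6, 15 of 29 tested histone genes were called higher and none lower, beside 4.83% of all genes called higher and 10.9% lower, and with sh5 3 were called higher and none lower, beside 1.38% and 3.82% of all genes. By the adjusted p alone 18 were higher with sh6 (23.8% of all genes, with 26.0% lower) and 6 with sh5 (17.7%, with 18.1% lower). The median log2 fold change of the 29 genes was 1.25 with sh6 and 0.39 with sh5, and that of all genes −0.02 and −0.03. Since several of these genes passed the filter through their reads in the sh6 libraries, the counts are descriptive. In the direct comparison of sh6 with sh5, 11 histone genes were called higher (6.36% of all genes) and 1, Hist1h4k, lower (9.39% of all genes), and by the adjusted p alone 14 were higher (25.9%) and 1 lower (26.6%). The summed level was 288 ± 22.9 CPM with sh6, 197 ± 23.8 with sh5 and 217 ± 13.9 with nt (SD, n = 3), and without Hist1h2bc and Hist1h1c it was 99.5 ± 9.40, 57.7 ± 7.69 and 47.2 ± 3.18 CPM. The S phase sum was 946, 1048 and 986 CPM in the same groups.

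The sh6 libraries also stood apart in other ways. Fibroblast markers summed to 16780 to 17620 CPM with sh6 and to 38312 to 40009 CPM with nt, with 5 of 8 markers lower. The skeletal muscle sum was 196 to 214 CPM with sh6, 13.9 to 17.8 with sh5 and 37.6 to 39.1 with nt, and Acta1 alone made up 206 CPM of the sh6 mean, while Myog and Pax7 had no read and Myod1 was at 0.0793 CPM. E2f4 was at 63.5 CPM with sh6, 39.97 with sh5 and 39.8 with nt. The part of these differences in the histone values was not tested.

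Hist1h4h was at 6.62, 7.07 and 5.34 CPM with sh6, 2.60, 1.64 and 1.52 CPM with sh5 and 2.16, 2.36 and 3.00 CPM with nt. The sh6 libraries were above the other 6 (against nt 1.34 ± 0.23, adjusted p = 0.000857), and sh5 overlapped with nt. Hist1h3b was at 4.07, 3.18 and 1.92 CPM with sh6, 0.650, 0.512 and 0.451 CPM with sh5 and 0.551, 0.219 and 0.831 CPM with nt, again with sh6 alone above nt (2.47 ± 0.42, adjusted p = 0.000738). Hist1h2ab was at 2.79, 3.48 and 3.89 CPM with sh6, 1.30, 0.665 and 1.47 CPM with sh5 and 0.636, 0.878 and 1.11 CPM with nt (sh6 1.95 ± 0.32, adjusted p = 0.000617). Hist3h2a was at 39.8, 34.0 and 30.9 CPM with sh6, 20.9, 16.9 and 14.6 CPM with sh5 and 18.5, 18.3 and 20.6 CPM with nt (sh6 0.87 ± 0.14, adjusted p = 0.000594), so that sh6 stood above and sh5 overlapped with nt.

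Some genes were higher with both hairpins. Hist1h2be was at 5.87, 5.69 and 4.65 CPM with sh6, 5.96, 4.14 and 4.79 CPM with sh5 and 3.01, 2.85 and 2.03 CPM with nt, and both hairpins lay above nt without overlap (1.04 ± 0.21 with sh6, adjusted p = 0.00237, and 0.91 ± 0.21 with sh5, adjusted p = 0.00918). Hist1h3d was at 4.59, 5.45 and 6.04 CPM with sh6, 3.68, 3.53 and 3.50 CPM with sh5 and 2.63, 1.92 and 2.17 CPM with nt, in which the 3 groups were separate. Hist1h1d was at 5.29, 5.75 and 3.83 CPM with sh6, 3.14, 2.40 and 1.58 CPM with sh5 and 1.40, 1.54 and 1.02 CPM with nt, also in separate groups. Both hairpins passed the test for these genes and for Hist1h2ad and Hist1h1b. With sh5 only Hist1h2be passed in every alternative fit. When a library was left out, the adjusted p with sh5 reached 0.0834 for Hist1h3d, 0.158 for Hist1h1d, 0.073 for Hist1h2ad and 0.133 for Hist1h1b. The share of reads in no gene was also higher with sh5 (10.73% to 15.08%) than with nt (8.4% to 8.98%), and its part was not tested. Hist2h2be was higher with sh5 alone (4.12, 2.66 and 5.53 CPM against 2.04, 1.54 and 2.12 CPM with nt, 1.10 ± 0.30, adjusted p = 0.0175, up to 0.071 when a library was left out).

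Hist1h2bc was at 106, 100.2 and 90.6 CPM with sh6, 70.2, 75.1 and 70.0 CPM with sh5 and 77.7, 75.1 and 81.8 CPM with nt (sh6 0.34 ± 0.08, adjusted p = 0.00514). Hist1h1c was at 97.2, 86.0 and 86.0 CPM with sh6, 75.9, 79.4 and 47.5 CPM with sh5 and 90.8, 83.1 and 99.9 CPM with nt, and neither hairpin passed (sh6 −0.02 ± 0.17, sh5 −0.43 ± 0.17). Hist1h3a had 49 reads with sh6 and 2 with nt, a ratio of 30.4 (95% counting interval 7.98 to 258), and Hist1h2bl had 35 reads and 1 read, a ratio of 43.5 (7.30 to 1765). Hist1h2bf was between 0.814 and 1.16 CPM with sh6 and at most at 0.329 CPM with nt, and Hist1h2bh between 0.581 and 0.988 CPM with sh6 and at most at 0.277 CPM with nt.

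ATAC-seq marks open chromatin by the insertion of a transposase, and peaks were called by the authors in each sample. A peak within 1000 bases of an annotated start was present for 60 to 62 of the 68 histone genes in every sample (88.2% to 91.2%), against 54.9% to 59.2% of all 32851 promoters of the table. In all 13 samples 59 genes had a peak, and 6 had none in any sample (Hist1h1t, Hist1h2aa, Hist1h2ao, Hist1h2ba, Hist1h2bq and Hist1h2br). Of these, Hist1h2bq and Hist1h2br shared 100% of their 150-base windows with other histone genes, and Hist1h2ao 52.9%. The paper kept only ATAC-seq reads with a unique alignment. Whether read mapping left these genes without a peak or an RNA read was not tested. For 27 of the genes another of these genes starts within 1000 bases, so 1 peak can count for 2 genes or more. Genes whose starts lie further apart can share a peak too. Hist1h1e and Hist1h2be, Hist1h2bb and Hist1h3c, and Hist1h3a and Hist1h4a are such pairs, each with the same mean percentile at every passage. Among all peaks of a sample, at promoters or elsewhere, the median histone gene with a peak lay between the 86.7th and the 91.9th percentile of −log10 p. The strongest peak near a start was taken. Percentiles were not computed for all promoters, so whether these values differ from those of other promoter peaks was not tested.

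All 22 genes tested in the passages had a peak in every sample, and so did 34 of 37 genes with reads but too few to test and 3 of 9 genes without a read. The median percentile was 89.1 for the tested genes, 90.7 for the genes with too few reads and 79.4 for the 3 genes without reads. Some genes with too few reads share a peak with a tested gene, such as Hist3h2bb-ps with Hist3h2a (both 94.2). These sets of genes are therefore not independent. Over passages the percentile of Hist1h2bc with Hist1h2ac, which share a peak, was 95.4 ± 0.898 at P1 (SD, n = 4) and 95.3 ± 0.342 at P7 (n = 3). For Hist1h1c it was 86.1 ± 2.43 at P1 and 79.2 ± 2.04 at P7, and for Hist1h4n 73.9 ± 3.78 and 41.1 ± 11.5. Hist1h1b went from 85.2 ± 3.49 to 94.7 ± 0.221. Peak lists hold no read counts, so these percentiles are given without a test.

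**Figure D4:**
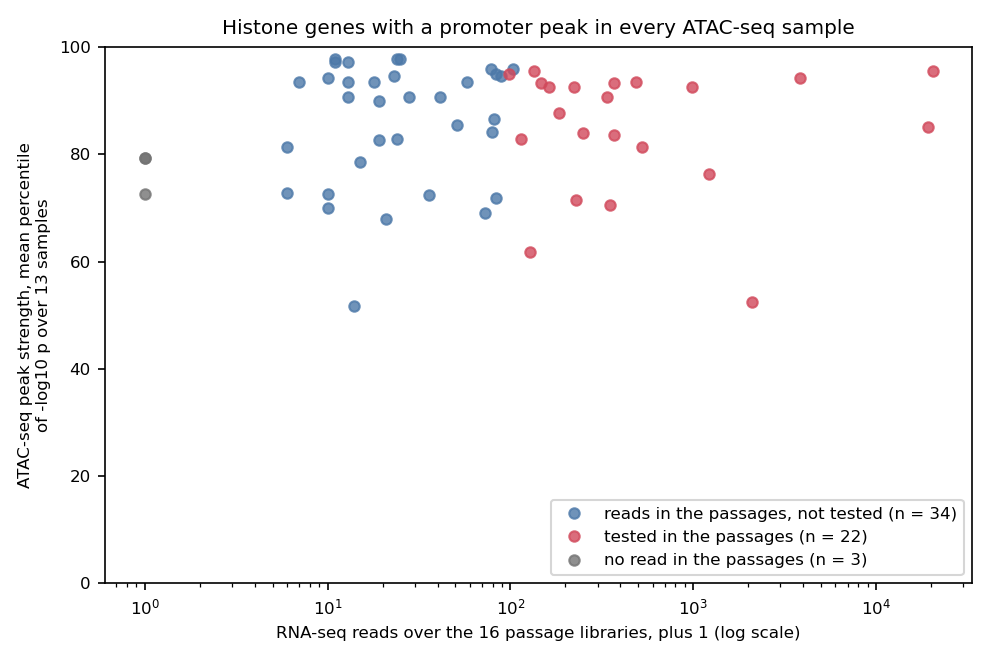
Mean percentile of the promoter peak over 13 ATAC-seq samples (vertical axis) against the RNA-seq reads of the gene over the 16 passage libraries plus 1 (log axis), for the 59 histone genes with a peak in every sample. Red points are the 22 genes tested in the passages, blue points 34 genes with too few reads and grey points 3 genes without a read, of which 2 have the same value. Genes with few reads reach percentiles as high as those of the most abundant genes, but some of them share a peak with a tested gene.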

How the data were processed

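Raw counts per UCSC gene were used as deposited. The authors had made them with HTSeq 0.12.4, ignoring strand, from HISAT2 2.2.1 alignments (mm10) of read pairs trimmed by Trimmomatic 0.39. The choice of poly(A) selection or rRNA depletion is not given in the sources used here. For ATAC-seq the authors aligned with Bowtie2 2.3.5.1 and called peaks with MACS2 in each sample, and the deposited peak lists hold a fold enrichment and a −log10 p per peak. Peak lists give no read depth. The 18 RRBS samples were not analysed. No column of per-sample values was left out of the tables used. HTSeq's summary rows were left out of library sizes and tests, with 5.64% to 15.1% of reads in no gene in the 28 intervention files.

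The quasi-likelihood test of edgeR 4.0.16 under R 4.3.3 was run separately for the passages and for each intervention (TMM scaling, filterByExpr, Benjamini-Hochberg over all genes tested). A fit held all groups of its experiment and no replicate block. Alternatives were DESeq2 1.42.0, its size factors, other filters, the compared groups alone, a replicate block and leaving out each library. The fits were tested on simulated counts. The sources do not say whether same-numbered RNA-seq libraries share a culture. Their deviations correlated at −0.26 to 0.28 in the passages, short of the bar set for pairing, so the reported fits hold no pairs. No 2 replicates were alike within sampling noise (chi-square per degree of freedom 2.75 to 63.7 over 50 pairs).

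Genes named are those with a mean of at least 1 CPM over the passage libraries or called in any of 11 comparisons, at most 30, with values per library for 14 of them. Genes of each reference list named are the 4 with the largest change at P7 against P1. The other genes named are the targeted genes, markers and genes in a count of 5 or fewer, and those outside these rules were chosen after their values were seen. The histone genes, lists and rules were chosen with earlier results of these data known.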

Additional observations from a re-analysis of the deposited data

Results flagged for a closer look

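Among 60 groups of 4 passage libraries examined, 3 had a library far from the others, where chance flags about 1 in 20 groups. For Hist2h2be the fourth P3 library was high, with a gap of 0.853 of the group's range. For Hist1h2ab the first P1 library was low (0.905), with 0 reads where each of the others had 1. For the summed level of the histone genes the third P3 library was low (0.847).

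The hairpins against the same gene differed in a direct comparison (edgeR's quasi-likelihood test). For Tead1, Hist1h2bc was lower with sh4 than with sh3 (log2 difference −0.22). For Atf3, 13 of the named genes were higher with sh6 than with sh5. The log2 differences were 0.46 for Hist1h2bc, 1.00 for Hist3h2a, 1.72 for Hist1h4h, 1.06 for Hist1h1d and 0.59 for Hist1h3d. They were 2.49 for Hist1h3b, 1.57 for Hist1h2ab, 1.45 for Hist1h4n, 1.40 for Hist1h4a and 2.36 for Hist1h2bb. The largest were 3.71 for Hist1h2bf, 3.998 for Hist1h3a and 3.52 for Hist1h2bl. Hist1h3a and Hist1h2bl had 3 reads each over the sh5 libraries.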

How the results depend on the processing

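No called result reversed. With at least 10 counts in every library, 5 histone genes stayed in the passage fit, and the genes called were 1 at P3 against P1 (7 in the reported fit), 1 at P5 against P3 (9), 0 at P7 against P5 (6), 3 at P7 against P3 (17), 2 at P7 against P1 (15) and 6 of 12 for Atf3 sh6 (15). Fitting the compared groups alone gave 4 at P3 against P1, DESeq2 gave 4 for E2f4 overexpression (8), and no filter gave 1 for Tead1 sh3 and 1 for sh4 (0 each). Leaving out a library gave 5 to 8 at P3 against P1, 5 to 10 at P5 against P3, 5 to 7 at P7 against P5, 18 to 20 at P7 against P3, 15 to 18 at P7 against P1, 5 to 7 with E2f4 overexpression, 0 to 1 with E2f4 sh1 and with Tead1 sh3, 0 to 3 with Atf3 sh5 and 12 to 17 with Atf3 sh6. At 1 CPM in every library of a group, 13 genes were detected in Tead1 (21) and 16 in Atf3 knockdown (29). Without the most abundant gene the log2 ratio of the sums was −0.22 at P3 against P1 (−0.03), 1.33 at P7 against P1 (1.48), −0.44 with E2f4 overexpression (−0.59), 0.025 with E2f4 sh1 (0.22) and −0.26 with Tead1 sh3 (−0.10). Without the top 2, chosen after seeing the data, it was −0.018 with E2f4 sh1, −0.035 with Tead1 sh4 (−0.14), 0.29 with Atf3 sh5 (−0.14) and 1.08 with Atf3 sh6 (0.41). The sign of the ratio thus changed for E2f4 sh1 and Atf3 sh5. Nothing in the labels says whether same-numbered libraries share a culture, and 11 of 24 same-numbered passage pairs correlated above 0.1. With the replicate block the calls were 8, 9, 7, 17 and 15 in the passage comparisons, 9 with E2f4 overexpression, 0 with E2f4 sh1 and both Tead1 hairpins, 2 with Atf3 sh5 and 15 with Atf3 sh6. Of named genes that passed, 16 of 17 at P7 against P1 and 17 of 18 at P7 against P3 did so under every alternative, and Hist1h2ac did not. With E2f4 overexpression 4 of 11 did, with Tead1 sh3 1 of 2 (not Hist1h2bc), with Atf3 sh5 1 of 6 and with Atf3 sh6 13 of 18 (not Hist1h2ad, Hist1h2bb, Hist1h2bh, Hist1h4i and Hist1h4n). The cause was not tested for any of these, apart from the smaller number of genes left by the filters.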
